A study of Dorcoceras hygrometricum with 14 samples.

Results

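The Calvin cycle and photorespiration genes of Boea hygrometrica, a resurrection plant that regenerates shoots from cut leaves, were followed while leaf pieces were cultured. Members were all genes whose homology description or product name held the name of an enzyme of either pathway, or the word Rubisco. The rule used no measured value and found 49 of the 24110 genes in the expression table. Of these, 43 passed the filter for testing, which asked for at least 1 FPKM (fragments scaled to transcript length and library size) in at least 3 of 12 libraries. By description, 16 members were enzymes or Rubisco proteins of the chloroplast Calvin cycle and 2 were cytosolic forms of cycle enzymes. A further 9 carried names of photorespiration enzymes, 3 of them alanine-glyoxylate aminotransferases described as mitochondrial. Another 17 were factors that fold, assemble or methylate Rubisco. The remaining 5 matched by words only, and their other descriptions named other proteins.

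Pieces of 0.5 cm were cut from young leaves of 1-month-old plants and cultured on medium with 0.1 mg/L 2,4-D, an auxin, and 0.1 mg/L 6-BA, a cytokinin. RNA was sequenced at days 0, 5, 10 and 15, with 3 biological replicates of about 30 discs at each day. Day 0 pieces served as the control. DNA methylation was measured in mature leaves of 6-month-old plants and in young leaves of 1-month-old plants, with 1 bisulfite library each made from DNA mixed from 5 replicates. A library holds all cells of the discs, so fewer green cells and less RNA per green cell cannot be told apart.

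In the Calvin cycle, Rubisco joins CO2 to ribulose bisphosphate, and a set of phosphatases, transketolase and epimerase rebuilds that acceptor, with phosphoribulokinase closing the circle. When Rubisco uses oxygen in place of CO2 it makes phosphoglycolate, which photorespiration turns back into glycerate by way of the chloroplast, peroxisome and mitochondrion. Both pathways are marks of green mesophyll, and Rubisco's small chain is among the most abundant messages of a leaf.

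The 35 markers of green leaf cells (chlorophyll-binding proteins, photosystem subunits and oxygen-evolving proteins) summed to between 51526 and 90061 FPKM at day 0. The 35 epidermis markers summed to between 675 and 972 FPKM at that day. None of the green leaf markers was listed at 0 in all 12 libraries. The same held for every other gene list looked at, so this check does not set green tissue apart. The green leaf sum of day 10 replicate 1, 65924 FPKM, lay within the day 0 range. Total FPKM per library lay between 846672 and 970083, and between 15531 and 16496 genes reached 1 FPKM. The table gives no counts, so the depth is unknown. Replicate 3 stood apart from replicates 1 and 2 across days, with 860 genes called between them. In that contrast 239 of the 17288 genes tested were lower and 621 higher in replicate 3, with a median log2 difference of 0.12. Of the 43 tested members 5 were lower and 2 higher, with a median of -0.49. Of the 27 epidermis markers tested there, 11 were higher and 1 lower in replicate 3 (median log2 difference 0.83), and the green leaf markers had a median of -0.40. At day 15 the epidermis markers summed to 1085 FPKM in replicate 3 and to 613 and 619 FPKM in replicates 1 and 2. The part of these markers in the members' differences was not tested. The library labelled day 10 replicate 1 stood nearer to day 0 than its fellow replicates did, as the values below show.

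The 49 members together made up 6.96% ± 0.26 of all FPKM at day 0, 3.00% ± 0.76 at day 5, 3.12% ± 1.57 at day 10 and 2.01% ± 0.71 at day 15 (SD, n = 3 each). Their summed level was 70053, 64242 and 65208 FPKM at day 0. It was 32343, 33568 and 19078 FPKM at day 5, 47312, 24172 and 16488 FPKM at day 10, and 26449, 17185 and 11987 FPKM at day 15. Every cultured library lay below every day 0 library, and day 10 replicate 1 was the highest of the cultured libraries. The summed level of the green leaf markers had a similar order at day 10, with 65924 FPKM in replicate 1, 24396 FPKM in replicate 2 and 19129 FPKM in replicate 3. At day 15 these markers summed to 37912, 21915 and 12768 FPKM. Of the 33 green leaf markers tested, 12 were called lower and 0 higher at day 5, 2 and 0 at day 10, and 19 and 0 at day 15. At these days 3.48%, 2.26% and 4.38% of all genes tested were called lower. The part of the green leaf markers in the members' result was not tested.

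**Figure D1:**
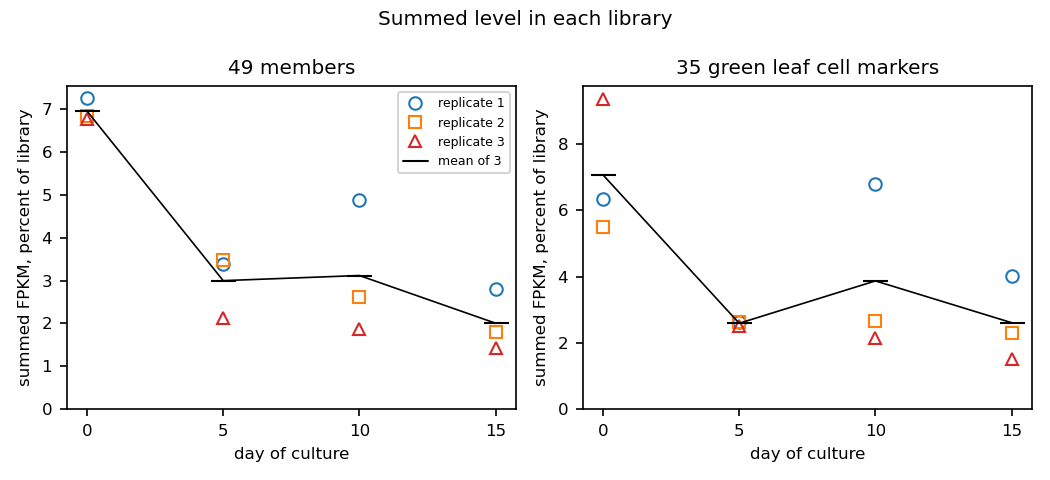
Summed FPKM as percent of the library total (y axis) against day of culture (x axis), for the 49 members (left) and the 35 markers of green leaf cells (right). Points are the 3 replicate libraries of each day and the line joins their means. The members' share is lower in every cultured library than at day 0, and in both panels replicate 1 is the highest library at day 10.

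At day 15, 14 of the 43 tested members were lower and 3 higher than at day 0. A gene was called at an adjusted p under 0.05 (limma on log2(FPKM + 1), Benjamini-Hochberg over all 17288 genes tested) and a log2 fold change of at least 1 in size. Over all genes tested 9.02% were called at day 15, 4.38% as lower and 4.63% as higher. The members' median log2 fold change was -0.48, against 0.21 for all genes. At day 5, 6 members were lower and 2 higher, where 6.61% of all genes were called, 3.48% as lower and 3.13% as higher. At day 10 the counts were again 6 lower and 2 higher, where 4.49% of all genes were called, 2.26% as lower and 2.24% as higher. The members' median was -0.23 at day 5 and -0.22 at day 10, against 0.14 and 0.15 for all genes. These comparisons share the day 0 libraries and are therefore not independent.

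At day 5 the libraries of 18 members lay below and those of 4 above all day 0 libraries, where 11.7% of all genes did so below and 22.8% above. At day 10 the counts were 17 below and 5 above (8.97% and 20% of all genes), and at day 15 they were 20 and 5 (11.5% and 26.2%). In 17 members all 9 cultured libraries lay below all 3 day 0 libraries, and in 4 members they all lay above. Among all genes tested, 5.63% lay below in this way and 12.2% above. No member was called between day 10 and day 5 or between day 15 and day 10, and over all genes 0% were called in either comparison by limma. Of the 17288 genes tested, 539, 3 of them members, had an unadjusted p under 0.05 between day 10 and day 5. The same threshold gave 561 genes, 2 of them members, between day 15 and day 10. Both shares of all genes are smaller than this threshold gives without any difference, so these genes are not read as differing. Rescaling the libraries by median-ratio factors brought the median of all genes to -0.01, 0.00 and 0.03 at days 5, 10 and 15, a shift of over 0.1. It left 4, 5 and 15 members lower and 2, 2 and 3 higher. Over all genes the same rescaling gave 350 higher and 731 lower genes at day 5, against 541 and 601 as deposited. At day 10 it gave 248 and 504, against 387 and 390, and at day 15 it gave 493 and 1000, against 801 and 758.

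**Figure D2:**
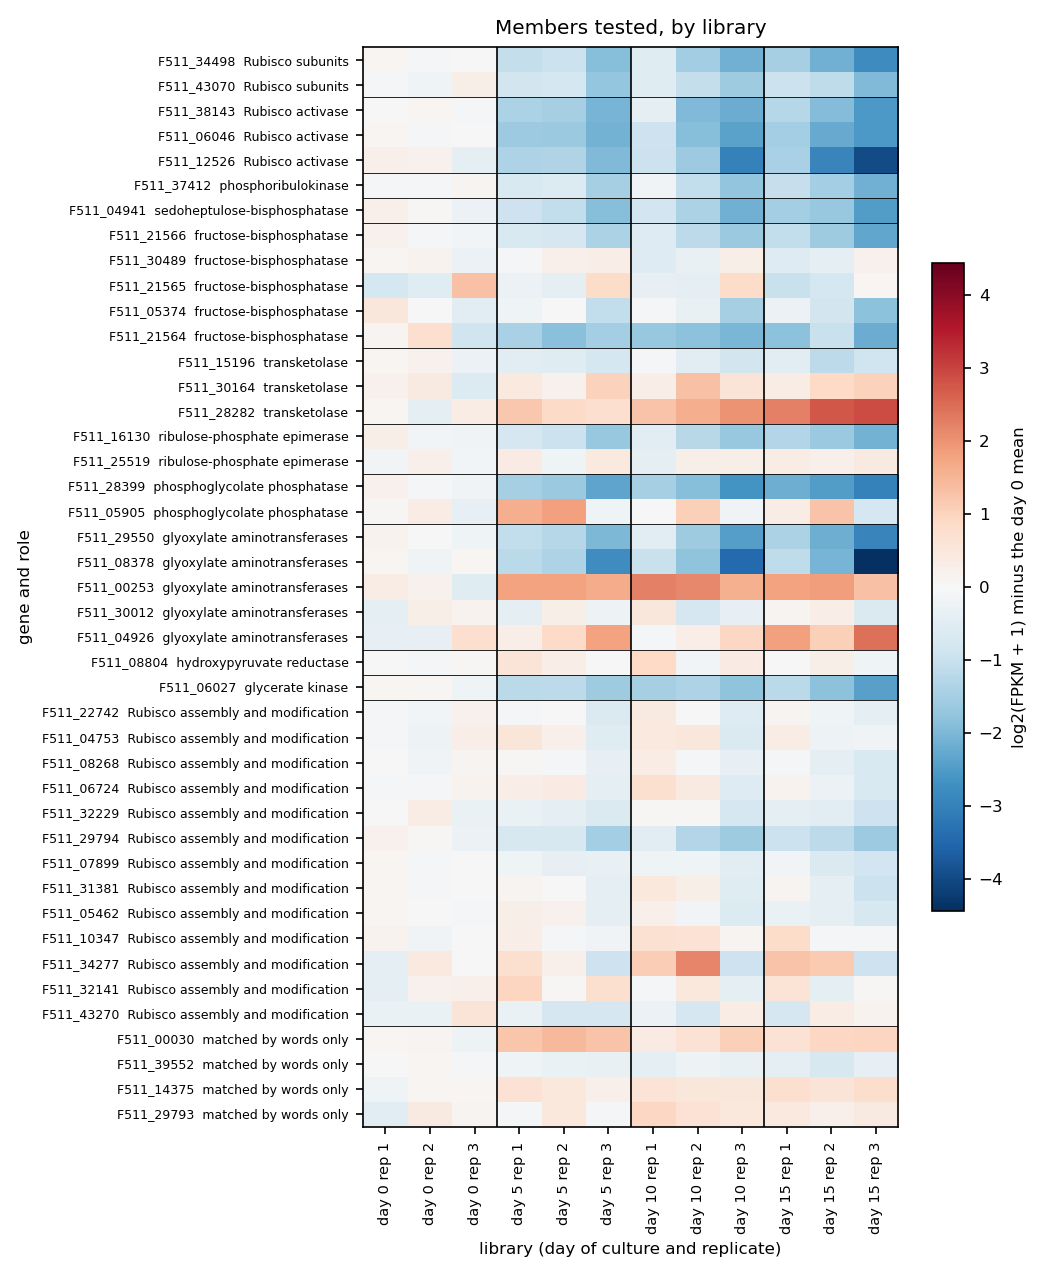
Heat map of the 43 tested members (rows, grouped by role) in the 12 libraries (columns), as log2(FPKM + 1) minus the gene's day 0 mean. Blue is below and red above the day 0 mean. Rows of the Rubisco subunits, activase and several cycle enzymes are blue in all cultured libraries, while most rows of the assembly factors stay pale.

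Of the 14 members called lower at day 15, 9 were abundant. Of the 17 members with a mean of at least 100 FPKM over the 12 libraries, 9 were lower and 0 higher at day 15, with a median log2 fold change of -1.66. Of the other 26 tested members, 5 were lower and 3 higher, with a median of -0.08. The mean used for this split includes the day 0 libraries, so a high day 0 level helped a member into the group of 17. The split and the fold changes are therefore not independent, and whether the change follows the level was not tested. The same split gave 4 lower and 1 higher of the 17 at day 5, and 3 lower and 0 higher at day 10.

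Of the 15 tested Calvin cycle members of the chloroplast, 4 were lower and 0 higher at day 5, 3 lower and 1 higher at day 10, and 10 lower and 1 higher at day 15. Their median log2 fold change was -1.11 at day 5, -1.12 at day 10 and -1.66 at day 15. At these days 3.48%, 2.26% and 4.38% of all genes were called lower, and 3.13%, 2.24% and 4.63% higher. The fixing enzyme itself led by level. F511_34498, the Rubisco small chain, which is the nuclear-encoded subunit of the enzyme, had 49521, 44264 and 46005 FPKM at day 0. It had 22482, 24074 and 12525 FPKM at day 5, 32447, 16147 and 10554 FPKM at day 10, and 16787, 10540 and 6767 FPKM at day 15. All cultured libraries lay below day 0, and replicate 3 was the lowest library of each cultured day. The small chain alone held 1.23% ± 0.50 of all FPKM at day 15, against 4.88% ± 0.22 at day 0 (SD, n = 3 each). Its log2 fold change at day 15 was -2.13 ± 0.47 (SE), a 4.38-fold lower level (limma, adjusted p = 0.0134). At days 5 and 10 its log2 fold changes of -1.30 and -1.40 were not called (adjusted p = 0.0916 and 0.087).

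F511_43070 is described as a partial Rubisco large chain, the catalytic subunit, and spans 642 bases of a scaffold. The large chain of plants is encoded in the chloroplast genome, and whether the scaffold comes from that genome is not given in the sources used here, so the partial locus is not read as the whole enzyme's message. It had 8.92, 7.82 and 4.00 FPKM at day 15, against 17.8, 15.8 and 22.0 FPKM at day 0, and the days did not overlap. The difference was called (log2 fold change -1.35 ± 0.36, adjusted p = 0.0275). The second small chain member, F511_34348, was listed above 0 in 1 library, at 0.72 FPKM in day 5 replicate 1, and was not tested.

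All 3 Rubisco activase members were lower at day 15. Activase is the ATP-driven protein that frees Rubisco's active site from bound sugar phosphates. F511_38143 had 3149, 2029 and 1315 FPKM at day 15, against 7627, 8063 and 7280 FPKM at day 0. At day 10 its replicate 1, with 5865 FPKM, lay near the day 0 values, while replicates 2 and 3 had 1948 and 1677 FPKM. The locus was called at day 5 (log2 fold change -1.65 ± 0.46, adjusted p = 0.0411) and at day 15 (-1.91 ± 0.46, adjusted p = 0.0195), but not at day 10 (-1.52, adjusted p = 0.0676). Its day 5 and day 15 calls were lost in 8 and 4 of the 12 fits without 1 library, and both with replicates 1 and 2 alone. The day 5 call was also lost with median-ratio rescaling and without the filter.

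F511_06046, the second activase locus by level, averaged 1492 ± 257 FPKM at day 5, 1675 ± 879 FPKM at day 10 and 1259 ± 488 FPKM at day 15, against 5109 ± 328 FPKM at day 0 (SD, n = 3 each). It was called at all 3 days, with log2 fold changes of -1.79, -1.73 and -2.09 (adjusted p = 0.0137, 0.0213 and 0.00627). F511_12526, which is far less abundant, had 21.8, 7.06 and 2.89 FPKM at day 15, against 70.9, 68.5 and 44.6 FPKM at day 0. Its log2 fold change of -2.77 ± 0.62 was the largest fall among the members called at day 15 (adjusted p = 0.0142). The 3 loci share a description, and how the authors' counting shared reads between such copies is not given in the sources used here.

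**Figure D3:**
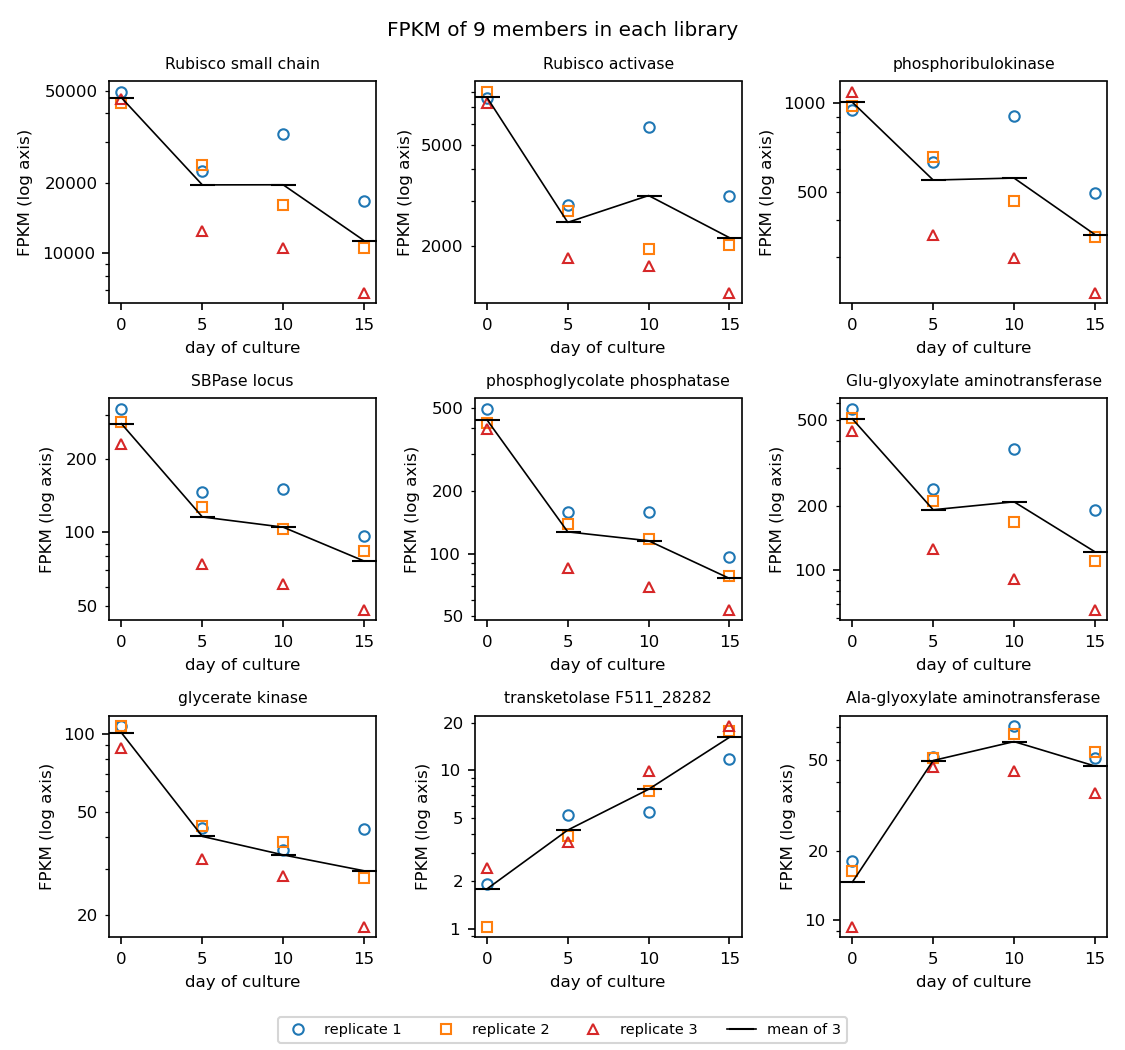
FPKM (y axis, log scale) of 9 members against day of culture (x axis). Points are single libraries by replicate and the line joins the means of 3. The Rubisco activase shown is F511_38143. In the other panels the cultured libraries lie lower than day 0, while those of transketolase F511_28282 and alanine-glyoxylate aminotransferase F511_00253 lie higher in all cultured libraries.

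Of the 12 tested members of the steps that rebuild the acceptor, 5 were lower and 1 higher at day 15. At that day 4.38% of all genes were called lower and 4.63% higher. Phosphoribulokinase F511_37412, which phosphorylates ribulose phosphate to give Rubisco's substrate, had 497, 352 and 227 FPKM at day 15, against 947, 978 and 1094 FPKM at day 0. At day 10 its replicate 1 had 906 FPKM, close to day 0, and replicates 2 and 3 had 466 and 300 FPKM. The call was made at day 15 (log2 fold change -1.56 ± 0.41, adjusted p = 0.0266), while its changes of -0.92 at day 5 and -0.999 at day 10 were not called (adjusted p = 0.16 and 0.146).

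F511_04941 carries the product name of sedoheptulose-1,7-bisphosphatase, a phosphatase of the regeneration phase. Its transcripts also carry descriptions of a sugar phosphate translocator, so its FPKM belongs to a merged locus and cannot be assigned to the phosphatase alone. The locus had 146, 127 and 74.0 FPKM at day 5, 150, 103 and 61.3 FPKM at day 10, and 97.0, 84.0 and 48.3 FPKM at day 15, against 320, 282 and 230 FPKM at day 0. No cultured library overlapped day 0. Each day of culture was called, with log2 fold changes of -1.30, -1.47 and -1.89 (adjusted p = 0.043, 0.0359 and 0.00904). The day 5 and day 10 calls were lost in 8 and 6 of the 12 fits without 1 library, and both were lost without the filter. Median-ratio rescaling also removed the day 5 call.

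Fructose-1,6-bisphosphatase, the other phosphatase of the regeneration phase, was described at 5 member loci, 4 as chloroplastic and 1 as cytosolic. F511_21566, the most abundant, had 250, 177 and 107 FPKM at day 15, against 606, 514 and 490 FPKM at day 0, without overlap. At day 15 the fall was called (log2 fold change -1.66 ± 0.34, adjusted p = 0.011). Its neighbour on the same scaffold, F511_21564, was barely expressed in culture, at 0.29, 1.32 and 0.00 FPKM at day 15, against 3.98, 6.63 and 1.5 FPKM at day 0. It was called at all 3 days (log2 fold changes -1.61, -1.85 and -1.66; adjusted p = 0.0395, 0.0308 and 0.0281), but at this level all of these calls were lost with a pseudocount of 5 FPKM. The locus between them, F511_21565, had libraries that overlapped at all days (day 15 log2 fold change -0.56, adjusted p = 0.526), with 63.8 FPKM in day 0 replicate 3 and 14.3 and 16.8 FPKM in the other day 0 replicates. F511_05374 also overlapped (log2 fold change -0.96 at day 15, adjusted p = 0.193).

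Transketolase, which moves carbon pairs between sugar phosphates in the Calvin cycle and in the pentose phosphate pathway, had 3 members whose log2 fold changes differed in sign. The abundant one, F511_15196, had 944, 587 and 721 FPKM at day 15, against 1401, 1518 and 1102 FPKM at day 0. Its log2 fold change of -0.85 ± 0.25 passed the p threshold (adjusted p = 0.0381) but not the fold minimum, so it was not called. F511_28282, also described as chloroplastic, had 5.25, 3.86 and 3.52 FPKM at day 5, 5.5, 7.39 and 9.94 FPKM at day 10 and 11.7, 17.6 and 19.2 FPKM at day 15, against 1.91, 1.03 and 2.43 FPKM at day 0. All cultured libraries lay above day 0. Its log2 fold change was 0.92 at day 5 (not called, adjusted p = 0.0662), 1.63 ± 0.30 at day 10 (adjusted p = 0.0124) and 2.63 ± 0.30 at day 15 (adjusted p = 0.00106). The rise started from a level far below that of F511_15196, which at day 15 still averaged 751 ± 181 FPKM against 16.2 ± 3.93 FPKM for F511_28282 (SD, n = 3 each). The third, F511_30164, averaged 41.6 ± 10.3 FPKM at day 15 and 24.8 ± 8.34 FPKM at day 0, with overlapping libraries (log2 fold change 0.75, adjusted p = 0.153).

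For 2 enzymes, chloroplastic and cytosolic forms could be compared. Ribulose-phosphate 3-epimerase, which interconverts pentose phosphates, had a chloroplastic member, F511_16130, and a cytoplasmic one, F511_25519. The chloroplastic locus had 116, 90.8 and 66.1 FPKM at day 15, against 344, 262 and 257 FPKM at day 0 (log2 fold change -1.67 ± 0.34, adjusted p = 0.0105). One of its transcripts is described as a NEN1-like protein, so it too is a merged locus. The cytoplasmic epimerase had 31.4, 28.7 and 32.6 FPKM at day 15, against 22.5, 29.1 and 22.3 FPKM at day 0, with overlap and no call (log2 fold change 0.32, adjusted p = 0.34). The log2 ratio of chloroplastic to cytoplasmic epimerase averaged 1.99 ± 0.75 over the 9 cultured libraries, against 3.49 ± 0.37 over the 3 of day 0 (SD). The difference was -1.50 (two-sided exact permutation test of 9 against 3 libraries, p = 0.0182, adjusted over 3 pairs 0.0182).

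The cytosolic fructose-1,6-bisphosphatase F511_30489, an enzyme of sucrose synthesis, had 21.9, 24.8 and 38.1 FPKM at day 15, against 35.6, 37.3 and 27.7 FPKM at day 0, and was not called (log2 fold change -0.27, adjusted p = 0.491). The log2 ratio of chloroplastic F511_21566 to this cytosolic gene averaged 2.83 ± 0.78 in the cultured libraries and 3.97 ± 0.19 at day 0 (SD, n = 9 and 3). The difference was -1.13 (two-sided exact permutation test, p = 0.0182, adjusted 0.0182). Ratios in replicate 3 were 2.25, 2.09 and 1.46 at days 5, 10 and 15, the lowest of each day. Day 10 replicate 1, at 3.98, lay within the day 0 range of 3.75 to 4.10. Among chloroplastic phosphatases, the log2 ratio of F511_21566 to the sedoheptulose-bisphosphatase locus was 1.27 ± 0.13 in culture and 0.96 ± 0.12 at day 0 (SD, n = 9 and 3), a difference of 0.31 (two-sided exact permutation test, p = 0.0182, adjusted 0.0182). The highest of the day 0 ratios, 1.09, lay within the cultured range of 1.07 to 1.47. The smallest p these 12 libraries can give is 0.00909. The test treats the 9 cultured libraries as exchangeable units. Same-numbered libraries of different days were correlated, by up to 0.66, so the 9 may not be independent and the p-values of the 3 ratios may be too small. None of the 3 differences passed the threshold without day 0 replicate 1, 2 or 3, or with replicates 1 and 2 alone.

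**Figure D4:**
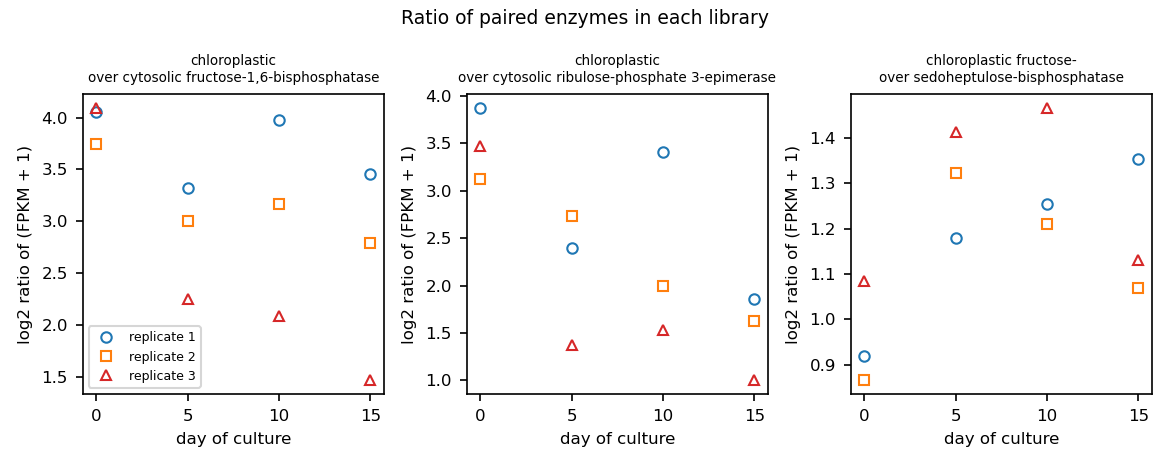
Log2 ratio of (FPKM + 1) of paired enzymes (y axis) against day of culture (x axis), 1 point per library. Both chloroplastic over cytosolic ratios lie lower in most cultured libraries than at day 0, with day 10 replicate 1 within the day 0 range. The ratio of the fructose- to the sedoheptulose-bisphosphatase lies between 1.07 and 1.47 in culture and between 0.87 and 1.09 at day 0.

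Of the 9 photorespiration members, 2 were lower and 1 higher at day 5, 2 lower and 1 higher at day 10, and 3 lower and 2 higher at day 15. At these days 3.48%, 2.26% and 4.38% of all genes were called lower, and 3.13%, 2.24% and 4.63% higher. All of the members' higher calls in this group were on alanine-glyoxylate aminotransferases described as mitochondrial. Phosphoglycolate phosphatase opens the pathway by removing the phosphate of phosphoglycolate in the chloroplast. Its main member, F511_28399, had 158, 139 and 85.2 FPKM at day 5, 158, 118 and 69.5 FPKM at day 10, and 96.3, 78.3 and 53.7 FPKM at day 15, against 498, 426 and 395 FPKM at day 0. The days of culture did not overlap day 0, and replicate 3 was the lowest library of each cultured day. The log2 fold changes were -1.82, -1.99 and -2.55 (adjusted p = 0.00898, 0.00839 and 0.00169), and the call held at each day when any 1 of the 12 libraries was left out. The second phosphatase, F511_05905, averaged 32.1 ± 18.9 FPKM at day 5 and 12.6 ± 3.18 FPKM at day 0 (SD, n = 3 each), with day 5 replicate 3 at 10.6 FPKM, and was not called at any day.

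Aminotransferases convert glyoxylate to glycine in the peroxisome. Glutamate-glyoxylate aminotransferase F511_29550 had 190, 110 and 65.4 FPKM at day 15, against 565, 509 and 444 FPKM at day 0. Its fall was called at day 15 (log2 fold change -2.17 ± 0.49, adjusted p = 0.0149), and its changes of -1.44 and -1.50 at days 5 and 10 were not (adjusted p = 0.0775 and 0.0826). Serine-glyoxylate aminotransferase F511_08378 had 208, 182 and 68.8 FPKM at day 5, 236, 137 and 42.4 FPKM at day 10, and 215, 111 and 20.8 FPKM at day 15, against 507, 411 and 506 FPKM at day 0. All cultured libraries lay below day 0, but the replicates of each cultured day were far apart. None of its log2 fold changes of -1.77, -2.08 and -2.55 (SE 0.81) was called (adjusted p = 0.175, 0.132 and 0.0528).

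The 3 alanine-glyoxylate aminotransferases, described as mitochondrial, held 2 of the members called higher at day 15. They were counted with photorespiration by enzyme name only. Since they are not described as peroxisomal, whether they act in that pathway cannot be told from the descriptions. F511_00253 had 51.6, 51.3 and 46.6 FPKM at day 5, 70.8, 65.4 and 44.7 FPKM at day 10, and 51.2, 54.3 and 36.0 FPKM at day 15, against 18.2, 16.4 and 9.33 FPKM at day 0. Every cultured library lay above every day 0 library. The log2 fold changes were 1.75, 1.99 and 1.65 (adjusted p = 0.00449, 0.00359 and 0.0038), and these calls held when any 1 library was left out. The day 15 call was lost when libraries were rescaled to the housekeeping genes. These genes themselves summed to 12796 to 13976 FPKM at day 0 and to 17569 to 22592 FPKM at day 15. Rescaling to them brought the median of all genes to -0.30, -0.19 and -0.23 at days 5, 10 and 15. At day 15 it gave 334 higher and 1659 lower genes, against 801 and 758 as deposited, so it removes higher calls in general. F511_04926 had 3.61, 1.68 and 6.06 FPKM at day 15, against 0.00, 0.00 and 1.15 FPKM at day 0. It was called at day 15 (log2 fold change 1.78 ± 0.52, adjusted p = 0.0383), a call lost in 6 of the 12 fits without 1 library. F511_30012 averaged 10.6 ± 3.64 FPKM at day 15 and 10.9 ± 2.69 FPKM at day 0 and was not called.

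The last steps reduce hydroxypyruvate and phosphorylate glycerate. Glycerate kinase F511_06027, which returns the carbon to the Calvin cycle in the chloroplast, had 43.3, 44.2 and 33.0 FPKM at day 5, 35.6, 38.3 and 28.3 FPKM at day 10, and 43.0, 27.8 and 18.0 FPKM at day 15, against 107, 107 and 87.8 FPKM at day 0. The groups did not overlap, and day 10 replicate 1 lay between its fellow replicates. It was called at each day (log2 fold changes -1.31, -1.54 and -1.81; adjusted p = 0.0138, 0.0103 and 0.00305). The reductase that matched by name, F511_08804, described as HPR3, averaged 7.08 ± 1.30 FPKM at day 15 and 6.82 ± 0.37 FPKM at day 0 and was not called (log2 fold change 0.03, adjusted p = 0.948).

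Glycolate oxidase and the peroxisomal hydroxypyruvate reductase appeared under other names, and their loci were looked up after the descriptions had been read. Glycolate oxidase, which makes glyoxylate and hydrogen peroxide in the peroxisome, is F511_05827, described as an (S)-2-hydroxy-acid oxidase. It had 278, 149 and 113 FPKM at day 15, against 1221, 1100 and 845 FPKM at day 0. Its log2 fold changes were -1.52, -1.86 and -2.63 at days 5, 10 and 15 (adjusted p = 0.0444, 0.0294 and 0.00506). The day 15 call held in every fit without 1 library. The day 5 call was lost in 8 of the 12 such fits, with median-ratio rescaling, without the filter and without trend or robust variances. The day 10 call was lost in 4 of the 12 and with only the 6 libraries compared. A second locus of the same description, F511_01119, was higher at day 5 (log2 fold change 1.14, adjusted p = 0.022) and at day 15 (1.00, adjusted p = 0.0277). Both of its calls were lost with a pseudocount of 5 FPKM, with median-ratio or housekeeping rescaling, with replicates 1 and 2 alone, and in 4 of the 12 fits without 1 library. Glycerate dehydrogenase F511_17529 had 94.9, 64.1 and 28.6 FPKM at day 15, against 253.4, 198 and 203 FPKM at day 0 (log2 fold change -1.94, adjusted p = 0.0319), a call lost without the filter and in 5 of the 12 fits without 1 library.

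**Figure D5:**
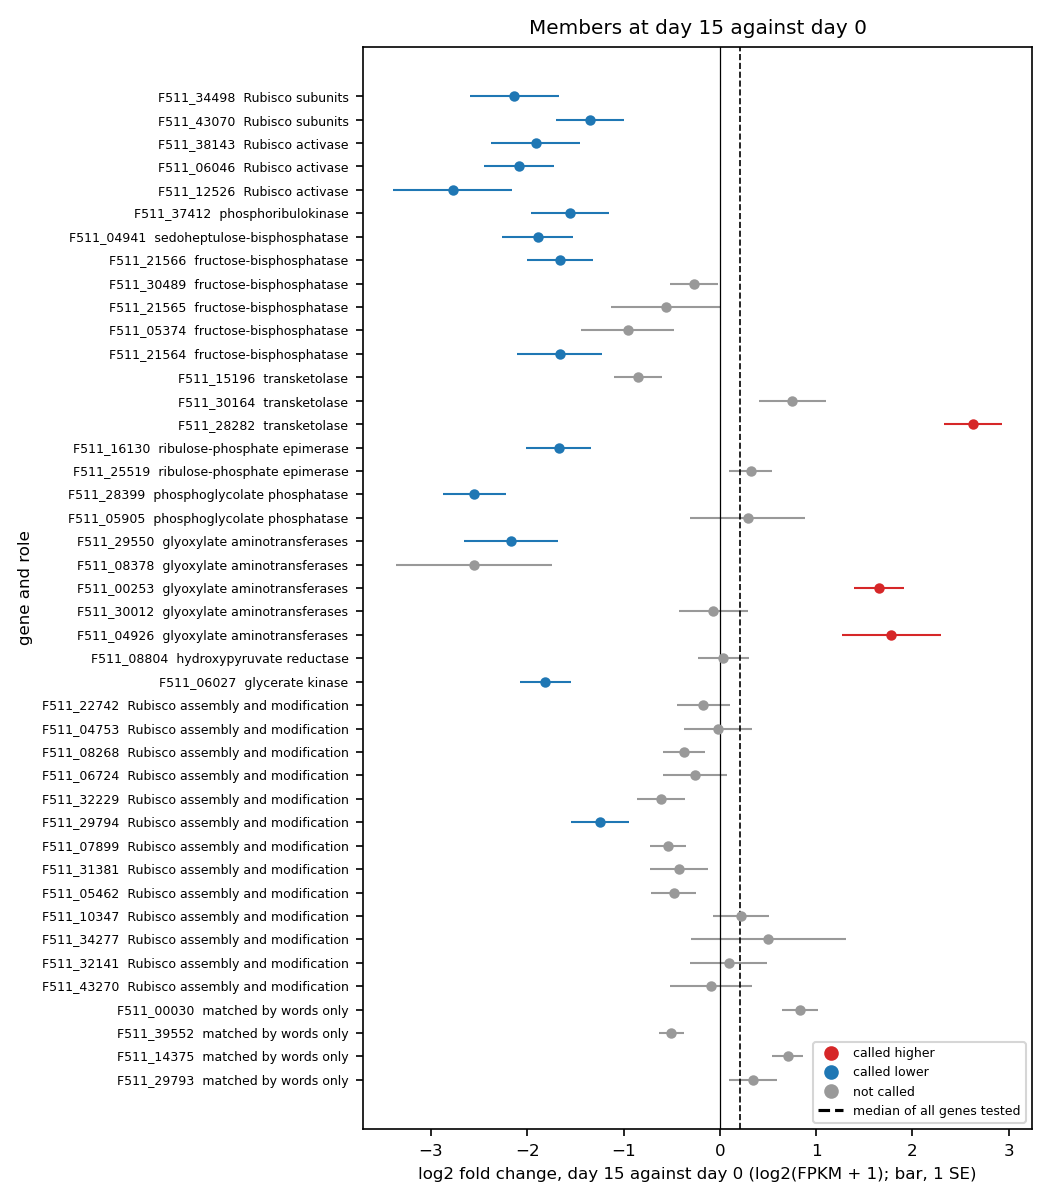
Log2 fold change of each tested member at day 15 against day 0 (x axis; bar, 1 SE), grouped by role (y axis). Blue points were called lower, red points higher and grey points neither, and the dashed line is the median of all genes tested, 0.21. The 14 members called lower run from -2.77 to -1.24 and the 3 called higher from 1.65 to 2.63.

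Of the 13 tested factors that fold, assemble and modify Rubisco, 0 were called at day 5, and at days 10 and 15 the same gene, F511_29794, was lower. Of all genes tested, 2.26% were called lower at day 10 and 4.38% at day 15, so 1 of 13 is near the background. Their median log2 fold change was -0.10, -0.04 and -0.26 at days 5, 10 and 15. F511_22742, the chaperonin 60 alpha subunit that forms the chloroplast folding cage, had 699, 573 and 476 FPKM at day 15, against 621, 590 and 742 FPKM at day 0, with overlap (log2 fold change -0.17 ± 0.27, adjusted p = 0.701). The most abundant chaperonin 60 beta locus, F511_04753, had 386, 259 and 273 FPKM at day 15, against 293, 259 and 376 FPKM at day 0. F511_06724, described as a Rubisco accumulation factor, averaged 142 ± 40.5 FPKM at day 15 and 166 ± 16.7 FPKM at day 0 (log2 fold change -0.26, adjusted p = 0.624). A further 4 chaperonin loci did not pass the filter. None of the 5 N-methyltransferase members, which methylate the large chain in some plants, was called. Whether their log2 fold changes differ from those of the Rubisco subunits was not tested.

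The single call was F511_29794, with 52.4, 45.0 and 33.2 FPKM at day 15, against 118, 107 and 85.0 FPKM at day 0. Its log2 fold change was -1.12 at day 10 and -1.24 at day 15 (adjusted p = 0.0476 and 0.0204). Its transcripts are described both as chaperonin 60 beta and as a membrane-associated 30 kDa protein, so the change cannot be assigned to the chaperonin.

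Not every call was equally firm. Of the calls on members, 9 of 17 at day 15 held in every fit that left out 1 of the 12 libraries. These were the Rubisco small chain, activase F511_06046, the sedoheptulose-bisphosphatase locus, bisphosphatase F511_21566, the chloroplastic epimerase, phosphoglycolate phosphatase, glycerate kinase, transketolase F511_28282 and aminotransferase F511_00253. At day 5 the calls on phosphoglycolate phosphatase, F511_00253 and F511_00030 held in this way, 3 of 8, and at day 10 those on phosphoglycolate phosphatase and F511_00253, 2 of 8. The other 8 day 15 calls were all lost without day 0 replicate 1, and all but that on activase F511_12526 also without day 15 replicate 3. Their highest adjusted p in fits without 1 library was 0.0561 for F511_12526, 0.0679 for activase F511_38143 and 0.0575 for F511_29550. It was 0.0887 for phosphoribulokinase, 0.0876 for the partial large chain, 0.105 for F511_21564, 0.078 for F511_29794 and 0.128 for F511_04926. At days 5 and 10 the other calls were lost without day 0 replicate 1, with a highest adjusted p between 0.051 and 0.16, except that on F511_28282, lost at day 10 without day 0 replicate 2 (adjusted p = 0.0514). Without day 10 replicate 1, 11 members were lower and 2 higher at day 10. The share of all genes called in that fit is not given here, so the rise is not read as particular to the members.

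Among the 5 members matched by words only, F511_00030 was called at day 5, with 257, 296 and 258 FPKM, against 115, 117 and 92.5 FPKM at day 0 (log2 fold change 1.32 ± 0.19, adjusted p = 0.00416). Its product name is alanine-glyoxylate aminotransferase, but its homology description names the homeobox-leucine zipper protein ATHB-6, so which of the names is right cannot be told from the table. With the libraries rescaled to housekeeping genes this call was lost. The uridine-cytidine kinase F511_14375 passed the p threshold at day 15 without reaching the fold minimum (log2 fold change 0.70, adjusted p = 0.0147), and dimethylglycine dehydrogenase F511_39552 did so in the other direction (-0.50, adjusted p = 0.0257).

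Of the members, 2 were tied to methylated regions in the authors' deposited tables. The CG table compares mature with young leaves and not culture days. The labels do not define the samples compared in the CHG and CHH tables. F511_00253, the aminotransferase that rose in culture, holds a CG region of 110 bases in an exon, on scaffold KQ997936.1 from 984291 to 984400, within the gene at 983716 to 986554. The build is not given in the sources used here. The authors' deposited table gives a methylation level of 0.424 in mature leaves and 0.930 in young leaves over 7 CG sites (authors' p = 0.0035). The authors' deposited table of the negative strand ties a region of 17 CHH sites upstream of the same gene to it, with an authors' p of 4.82e-05. The same deposited table of the authors gives F511_00030 a region of 45 CHH sites in its coding sequence, with an authors' p of 0.000102. The sample names of those CHH levels are not defined by the labels, so neither the samples compared nor a direction is given. With 1 library per leaf age there is no replicate check, and the coverage behind the levels is unknown. Regions were tied to 4.08% of members and to 4.04% of all genes.

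Enzymes of the same pathways that the rule did not name also held calls. Of 26 other tested genes of Calvin cycle steps (such as phosphoglycerate kinase, aldolase and triosephosphate isomerase), 2 were lower and 1 higher at day 5, 3 and 1 at day 10, and 7 and 1 at day 15. At these days 3.48%, 2.26% and 4.38% of all genes were called lower, and 3.13%, 2.24% and 4.63% higher. So 1 of 26 higher is near the background. By description, 6 of the 14 chloroplastic ones were lower and 1 higher at day 15, with a median log2 fold change of -0.999. Of the 9 cytosolic ones, 1 was lower and 0 higher, with a median of 0.55. The chloroplastic one called higher, F511_05918, was so at days 5, 10 and 15 (1.46, 1.34 and 1.86, adjusted p = 0.0285, 0.0495 and 0.00948). Its day 5 and day 10 calls were lost in 5 and 10 of the 12 fits without 1 library. Chloroplastic phosphoglycerate kinase F511_05922, which uses ATP on the product of Rubisco, had 230, 193 and 121 FPKM at day 15, against 796, 660 and 697 FPKM at day 0 (log2 fold change -2.02, adjusted p = 0.00259). Glyceraldehyde-3-phosphate dehydrogenase B F511_29194, the next step, had 498, 222 and 143 FPKM at day 15, against 1508, 1223 and 1454 FPKM at day 0 (-2.46, adjusted p = 0.008425).

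Of 24 other tested photorespiration genes, 5 were lower and 2 higher at day 5, 3 and 2 at day 10, and 8 and 2 at day 15. The shares of all genes called higher at these days were 3.13%, 2.24% and 4.63%, and those called lower are given below. The plastidal glycolate/glycerate translocator F511_27520, which links chloroplast and peroxisome, had 36.6, 15.7 and 13.4 FPKM at day 15, against 196, 172 and 111 FPKM at day 0 (log2 fold change -2.91, adjusted p = 0.00216). Catalase F511_33081, which removes the peroxide of glycolate oxidase, averaged 707 ± 88.6 FPKM at day 15 and 1598 ± 112 FPKM at day 0 (-1.18, adjusted p = 0.00216). A glutamine synthetase described as a nodule isozyme, F511_39523, was higher, at 236, 419 and 320 FPKM at day 15, against 55.3, 50.7 and 72.5 FPKM at day 0 (2.41, adjusted p = 0.000544). The chloroplastic glutamine synthetase F511_04119 was lower at days 5, 10 and 15 (-2.14, -2.19 and -3.13, adjusted p = 0.0244, 0.0295 and 0.00488). Its day 5 and day 10 calls were lost in 5 and 4 of the 12 fits without 1 library. Another locus described as chloroplastic, F511_44208, was not called. Of 11 tested genes of the oxidative pentose phosphate pathway, which shares transketolase with the Calvin cycle, 0 were lower at any day. Over all genes 3.48%, 2.26% and 4.38% were called lower at days 5, 10 and 15, so 0 of 11 is near the background. The putative 6-phosphogluconolactonase F511_24751 was higher at day 5, with 167, 110 and 150 FPKM, against 44.8, 72.0 and 52.3 FPKM at day 0 (1.33, adjusted p = 0.008715), a call lost with housekeeping rescaling.

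Markers of other cell types were set beside these values. At day 15 the 20 markers of dividing cells summed to between 564 and 746 FPKM, against 436 to 725 FPKM at day 0. The 35 epidermis markers summed to between 613 and 1085 FPKM at day 15 and between 675 and 972 FPKM at day 0. The 20 xylem markers summed to 125.4 to 233 FPKM at day 15 and 88.8 to 320 FPKM at day 0, and the 6 phloem markers to 88.8 to 178 FPKM at day 15 and 112 to 174 FPKM at day 0. In these lists the days overlapped, unlike the green leaf markers, whose day 15 libraries all lay below day 0.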

How the data were processed

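The authors deposited FPKM per gene and library, per the file headers. Without counts, the depth of a library is unknown and counting intervals cannot be computed. Tools listed in the submitters' processing notes, without roles, are BSMAP, Bowtie2 2.2.5, StringTie 1.0.4 and HISAT, and the build and annotation are not given in the sources used here. Methylation tables hold, per the file headers, a fraction from 0 to 1 for each CG region and the authors' p-value. 6 level columns of the CHG and CHH tables were not used, since the labels do not define their sample names.

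Expression was taken as log2(FPKM + 1), computed here from the deposited FPKM. Genes reaching 1 FPKM in 3 or more libraries entered a test with limma 3.58.1 (R 4.3.3, a mean per day over all 12 libraries, eBayes with trend and robust variances, statmod 1.5.0), two-sided, with Benjamini-Hochberg adjustment over all genes tested. The fit was tested on simulated data. SE is limma's standard error of a log2 fold change. Paired enzymes were compared as ratios per library with exact permutation tests (Python 3.11.15, scipy 1.17.1). A planned pair of peroxisomal and cytosolic hydroxypyruvate reductase was not formed, because no description names a cytosolic one. Replicate 3 was set against replicates 1 and 2 in a fit with day as a term.

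Named genes were all members called in any comparison, the most abundant member of each role, members of a pair or with a methylated region, and up to 2 called genes with the smallest adjusted p in each list of pathway neighbours. Members that only illustrate a spread of copies, the glutamine synthetases described as chloroplastic, and the chloroplastic Calvin cycle neighbour called higher were also named. Members and lists were chosen with earlier results of these data known. Alternatives were other pseudocounts, filters, scalings, variance settings, a replicate block and leaving out libraries.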

Additional observations from a re-analysis of the deposited data

How the results depend on the processing

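The members called numbered 8, 8 and 17 at days 5, 10 and 15 against day 0. Leaving out 1 library at a time gave 3 to 10, 3 to 13 and 9 to 18. The fewest came without day 0 replicate 1 (3, 3 and 9), and without day 0 replicate 2 they were 4, 3 and 11. At day 5 each fit without day 5 replicate 1, 2 or 3 or day 10 replicate 2 gave 5. At day 10, 13 were called without day 10 replicate 1 and 4 without replicate 2 or 3 of that day. At day 15, 10 were called without day 15 replicate 3. Fitting only the 6 libraries compared gave 2 at day 10. A replicate block gave 15, 16 and 18, and with median-ratio rescaling, a combination chosen after seeing the data, 16 and 17 at days 5 and 10. For the fits without 1 library, on 6 libraries or with a block, the counts over all genes are not given here. These moves are therefore not read as particular to the members. The replicate numbers share no stated animal, batch or day, and the deviations of same-numbered samples correlated between -0.01 and 0.66, with 14 of 18 pairings over 0.1 and the own number the best match in 12 of the 18. Other pseudocounts, filters, scalings (rescaling to housekeeping genes was chosen after seeing the data) and variance settings kept each members' count within 1.5 times. The members behind a count could still change, as F511_04941 and F511_38143 lost their day 5 calls with median-ratio rescaling. The pathway neighbours' counts stayed within 1.5 times under median-ratio rescaling and the replicate block, but without the filter 3 of the 4 Calvin cycle neighbours called at day 10 lost their call. Of the calls on members, 3 of 8, 2 of 8 and 9 of 17 held in every fit without 1 library; no direction reversed. With replicates 1 and 2 alone, which cannot pass the threshold, the ratio differences were -0.62 and -1.16 for chloroplastic over cytosolic bisphosphatase and epimerase and 0.34 for the fructose- over the sedoheptulose-bisphosphatase. Leaving out 1 library gave -1.27 to -0.96, -1.68 to -1.31 and 0.26 to 0.38. Of the 3 regions at members, 2 had an authors' p under 0.001.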
